A study of Mus musculus with 12 samples.

Results

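Whole testes of synchronized adult mice whose tubules were labelled as stages IV-VI (2 samples) were compared with those labelled as stages IX-XI (2 samples), 4 of the 12 samples of the series. The 4 samples are those that carry these stage labels, and the comparison was picked with earlier results of these data known. In all, 19946 genes were measured in each sample, as log2 intensity on Affymetrix Mouse Gene 1.0 ST arrays. All mice were males of a mixed 129/C57BL6 background. Per the labels, every group, both of these included, had received WIN 18,446, a blocker of retinoic acid synthesis, at 100 ug per gram each day for 7 days from 2 to 8 days after birth, then 200 ug of retinoic acid at 9 days after birth, and 43 to 49 days of recovery. No untreated group was among the samples. Whether 2 samples of 1 group are 2 animals is not stated in the labels. The p-values therefore describe the spread among the samples used, and that spread could be technical.

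In the cycle of the seminiferous epithelium, each stage holds a fixed set of germ cell types. Tubules at stages IV to VI hold round spermatids, which build the acrosome, beside late spermatids with condensed nuclei, and spermatogonia that divide on the way to meiosis. Tubules at stages IX to XI have released the late spermatids. They hold spermatids that are starting to elongate, and germ cells that have just entered meiosis in response to retinoic acid. The comparison asks which transcripts separate these nearly opposite points. In whole tissue, fewer cells of a type and less RNA per cell cannot be told apart.

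In limma, with Benjamini-Hochberg adjustment over all genes and a threshold of 0.05, 682 genes (3.42%) were higher in IV-VI and 751 (3.77%) were higher in IX-XI, together 1433 (7.18%). Of these, 192 (0.963% of all genes) were at least 2-fold higher in IV-VI and 235 (1.18%) at least 2-fold higher in IX-XI. At least 4-fold differences were found for 28 and 47 genes. The median size of the difference was 0.739 log2 among the genes higher in IV-VI and 0.766 log2 among those higher in IX-XI. Among all genes, both IV-VI samples lay above both IX-XI samples for 25.6% and below them for 41.7%, and the median difference of all genes was -0.0556 log2.

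The counts rested on all 4 samples. Without IV-VI sample 1, 437 genes were called, and 412 of them were among the 1433. Without IV-VI sample 2 the count was 6, without IX-XI sample 1 it was 2, and without IX-XI sample 2 it was 16. At an unadjusted p under 0.05, limma gave 4859 genes with all samples and 3646, 2783, 2913 and 3767 in the same order of leave-outs. Of the 104 genes chosen by rule for naming below, 37, 0, 0 and 3 were still called in these 4 leave-outs, and no difference changed sign. Acer2, an alkaline ceramidase, and Smok2b, a sperm motility kinase, were the genes called without either IX-XI sample and without IV-VI sample 2, and both were chosen after their values were seen. With all samples, Acer2 differed by -1.67 log2 and Smok2b by -2.24 log2, both higher in IX-XI, each with adjusted p = 0.00124. That no named difference changed sign is partly built in. Where groups do not overlap, leaving out 1 sample cannot change the sign.

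The samples of the 2 groups were not equally far apart. Over all genes, IX-XI sample 2 correlated at 0.984 and IX-XI sample 1 at 0.975 with IV-VI sample 1. IV-VI sample 1 lay closest to VII sample 1 (r = 0.997), ahead of its partner (0.995), and IV-VI sample 2 lay closest to II-IV sample 1 (0.998). These correlations are across genes, which are not independent replicates. Among the genes called higher in IV-VI, IX-XI sample 2 lay nearer to IV-VI than IX-XI sample 1 did for 73.5%, and among those called lower for 78.2%. IV-VI sample 2 lay farther from IX-XI than IV-VI sample 1 did for 79.2% and 74.3%.

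**Figure D1:**
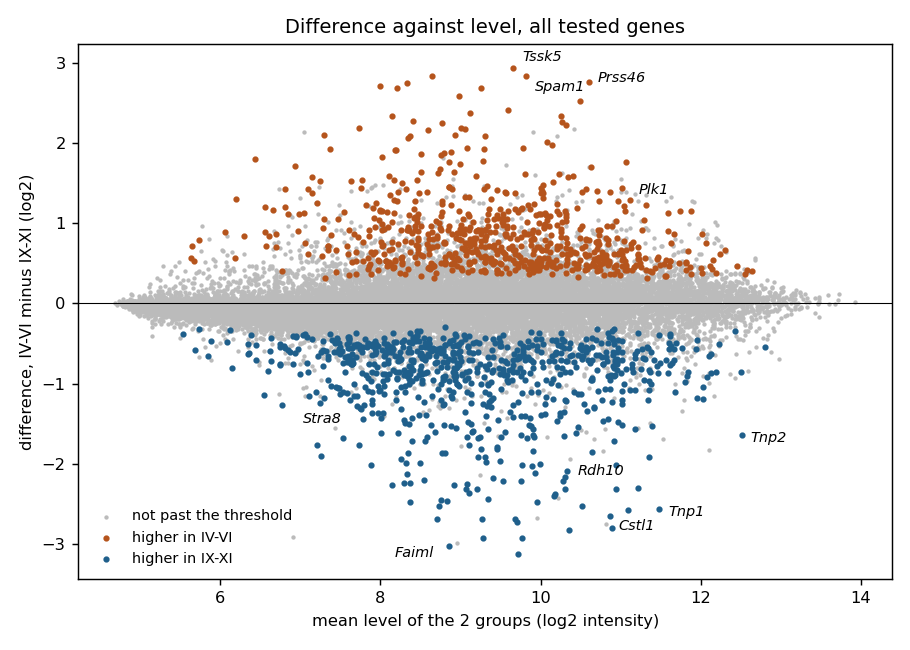
Difference between IV-VI and IX-XI (log2, vertical axis) against the mean level of the 2 groups (log2 intensity, horizontal axis) for 19946 genes. Each point is a gene, and coloured points are the 682 genes higher in IV-VI and the 751 higher in IX-XI, which reach a difference of 2.93 for Tssk5 and -3.03 for Faiml among the named genes.

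The largest differences in favour of IV-VI included a kinase of spermatids, the sperm hyaluronidase and a protease of the testis. Tssk5 (probe set 10429898, chromosome 15), of the testis-specific serine kinase family, stood at 11.15 and 11.10 log2 intensity in IV-VI samples 1 and 2 and at 7.45 and 8.94 in IX-XI samples 1 and 2. The IV-VI samples were alike and the IX-XI samples lay apart from each other. The groups did not overlap, here as in every leading gene, because the naming rule required it. The difference was 2.93 ± 0.61 log2 (SE of limma, n = 2 against 2), or 7.62-fold, with adjusted p = 0.0273. This SE, here and below, uses a variance drawn from all 12 samples and a prior. It is not the spread of these 4 samples alone. Spam1 (probe set 10536729, chromosome 6), the hyaluronidase of the sperm surface, stood at 11.26 and 11.21 in IV-VI and at 7.46 and 9.35 in IX-XI. The pattern was that of Tssk5, with IX-XI sample 2 the nearer to IV-VI. Its difference was 2.83 ± 0.69 log2, or 7.10-fold, with adjusted p = 0.0432. It was 1.88 without IX-XI sample 1, with adjusted p = 0.28. Tssk5 differed by 2.19 without that sample, with adjusted p = 0.21.

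Prss46 (probe set 10589640, chromosome 9), a trypsin-like serine protease of the testis, stood at 11.78 and 12.19 in IV-VI and at 8.80 and 9.65 in IX-XI. All 4 samples kept the order of the groups with a wide gap between them. The difference was 2.76 ± 0.32 log2, or 6.77-fold, with adjusted p = 0.00896. Without IX-XI sample 2 or without IV-VI sample 1 the adjusted p was 0.034 in both fits, and without IV-VI sample 2 it was 0.10. Its promoter is shown because Prss46 had the smallest adjusted p of the 12 leading genes higher in IV-VI. The 250 bases before the start in the RefSeq annotation of GRCm38.p6, chr9:110844256-110844505 on the plus strand, hold the letters GTTGCC on the opposite strand, part of the box that RFX factors bind. These letters are in capitals.
Prss46: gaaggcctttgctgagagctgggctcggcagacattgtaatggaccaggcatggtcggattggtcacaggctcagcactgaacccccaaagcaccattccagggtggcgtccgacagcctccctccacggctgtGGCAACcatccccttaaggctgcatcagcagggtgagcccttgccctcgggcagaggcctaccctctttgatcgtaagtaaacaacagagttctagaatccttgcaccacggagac

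Of the other genes among the 12 largest differences, several encode membrane proteins. Golga7b, a relative of a Golgi protein that works with palmitoyl transferases, was 6.40-fold higher in IV-VI, and Zdhhc11, of the palmitoyl transferase family itself, 5.31-fold. Tpte, a membrane protein of the testis, stood at 10.01 and 10.53 in IV-VI and at 7.34 and 8.03 in IX-XI, a 5.99-fold difference. Atp10a, of the phospholipid flippase family, was 5.73-fold higher, and Fer1l5, a ferlin of the family that acts in membrane fusion, 5.06-fold. Lrp5, a co-receptor for Wnt ligands, was 4.79-fold higher, at 11.31 and 11.49 against 8.69 and 9.60. The remaining leading genes were Fam228b (4.77-fold) and the pseudogenes Ppp4r3c-ps (6.46-fold) and Phf8-ps (4.64-fold), whose probe sets may also read related copies. Adjusted p of these 9 genes lay between 0.0111 (Tpte) and 0.0491 (Fer1l5). Of the 12, Prss46, Tpte and Fam228b were still called without IV-VI sample 1, Prss46 alone without IX-XI sample 2, and none without IV-VI sample 2 or without IX-XI sample 1.

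The largest differences in favour of IX-XI included a transition protein, serine proteases and Golgi proteins. Faiml (probe set 10595948, chromosome 9), related to an inhibitor of Fas-mediated apoptosis, stood at 7.88 and 6.78 in IV-VI and at 10.45 and 10.27 in IX-XI. Here the IX-XI samples were alike and IV-VI sample 2 was the lowest. The difference was -3.03 ± 0.62 log2, or 8.18-fold, with adjusted p = 0.0259. Tnp1 (probe set 10355511, chromosome 1), transition protein 1, which replaces histones before the protamines do, stood at 10.65 and 9.74 in IV-VI and at 12.92 and 12.59 in IX-XI. The groups did not overlap, and IV-VI sample 2 was again the lowest. The difference was -2.56 ± 0.53 log2, or 5.90-fold, with adjusted p = 0.0258. Without IV-VI sample 2 the adjusted p was 0.21 for both Faiml and Tnp1, and the differences were -2.48 and -2.11.

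Kcnab3 (probe set 10377516, chromosome 11), a beta subunit of voltage-gated potassium channels, stood at 7.43 and 7.49 in IV-VI and at 10.13 and 9.85 in IX-XI. It had the smallest adjusted p of the 24 leading genes, 0.00700, with a difference of -2.53 ± 0.25 log2. Its samples agreed closely within each group. Noxred1, an oxidoreductase, was 7.62-fold and Trim42, of the tripartite motif family, 7.59-fold higher in IX-XI. Fam71b and Fam71a, of a family of Golgi proteins tied to acrosome formation, were 7.07-fold and 5.95-fold higher. Prss52 (6.97-fold) and Prss58 (5.73-fold) are serine proteases, Defb33 (6.58-fold) is a beta-defensin, Glt6d1 (6.43-fold) a glycosyltransferase and Cstl1 (6.28-fold) a cystatin-like protein. Cstl1 stood at 9.56 and 9.50 in IV-VI and at 12.32 and 12.04 in IX-XI. Of these 12 genes, Kcnab3, Prss58, Fam71a, Glt6d1 and Noxred1 were still called without IV-VI sample 1, Kcnab3 without IX-XI sample 2 (adjusted p = 0.040), and none without IV-VI sample 2 or without IX-XI sample 1.

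**Figure D2:**
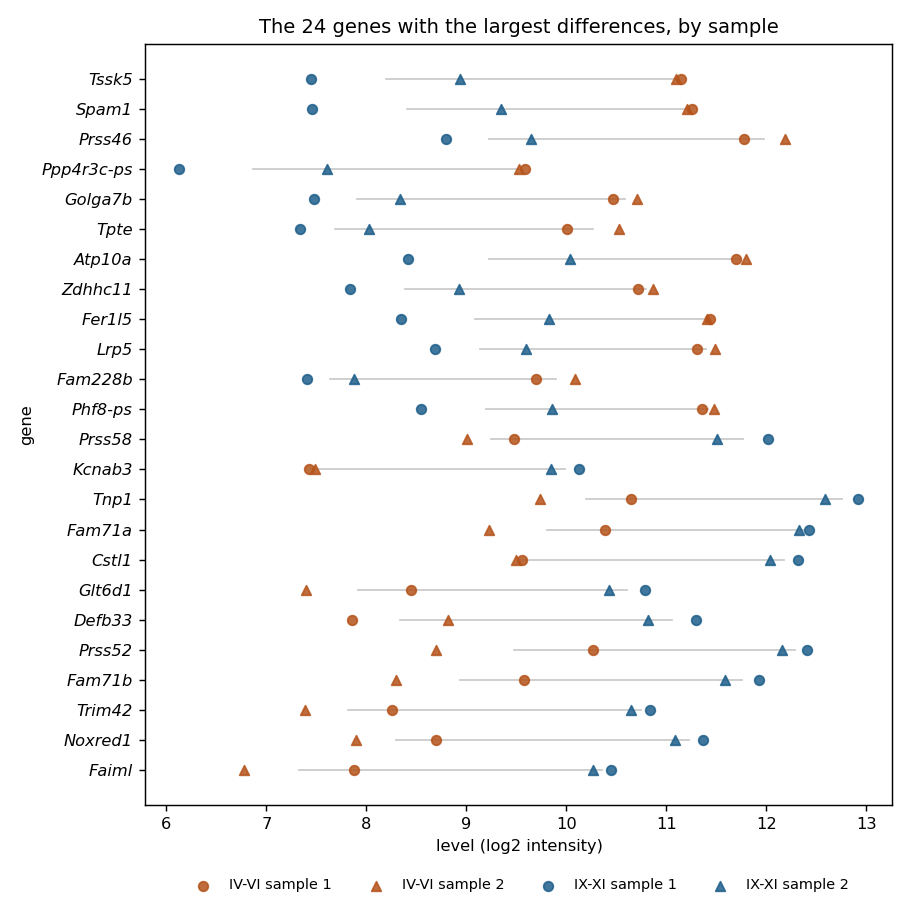
Level (log2 intensity, horizontal axis) of the 24 genes with the largest differences in each sample. Orange marks are IV-VI, blue marks IX-XI, circles sample 1 and triangles sample 2, and grey lines join the group means. In the upper 12 genes the IX-XI samples lie apart from each other, as for Spam1 at 7.46 and 9.35, and in most of the lower 12 the IV-VI samples do, as for Prss52 at 10.27 and 8.70.

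Members of the acrosome list were called in both directions. Of 58 measured genes of the acrosome and of egg binding, 3 were higher in IV-VI (5.17%, against 3.42% of all genes), 4 higher in IX-XI (6.90%, against 3.77%) and 51 did not pass. The list's median difference was 0.174 log2. Besides Spam1, Glipr1l1, a sperm protein of acrosome and cumulus binding, was higher in IV-VI, at 12.30 and 12.33 against 10.88 and 11.45 (adjusted p = 0.0168), as was Spesp1 of the equatorial segment by 0.35 log2. Higher in IX-XI beside Fam71a and Fam71b were Actrt3, an actin-related protein of the sperm head, at 9.12 and 8.29 against 11.30 and 11.09, and Sppl2c, a protease of the spermatid secretory pathway, by 0.92 log2. The list had 0 higher and 4 lower once IV-VI sample 1 was left out, and 0 either way without each of the other 3 samples. Its lower count was 8 without either XII-I sample and 6 without either II-IV sample.

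Proteases of spermatids differed in direction by member. Of 22 testis serine proteases, Prss46 was higher in IV-VI (4.55%, against 3.42% of all genes) and 5 were higher in IX-XI (22.7%, against 3.77%), namely Prss50, Prss51, Prss52, Prss55 and Prss58, with 16 not passing. Prss51 stood at 9.23 and 8.75 in IV-VI and at 11.05 and 10.60 in IX-XI, a difference of -1.84 log2. Prss50 differed by -0.79 and Prss55 by -1.18. In the ADAM family, membrane proteins of sperm adhesion, 2 of 21 were higher in IV-VI (9.52%) and 0 lower. Adam26a stood at 9.35 and 9.48 against 6.70 and 7.96, and Adam26b at 9.56 and 9.89 against 7.57 and 8.12. These are close relatives, and the probe set of each may also bind transcripts of the other. Of 8 testis-specific serine kinases and partners, Tssk5 was the only one called (12.5%). Protease calls without IV-VI sample 1 were 1 higher and 2 lower, without IX-XI sample 2 they were 1 and 0, and in the ADAM and kinase lists no call held in any of the 4 leave-outs. Leaving out a sample of another group gave 3 lower proteases (VII or VIII-IX) to 8 (XII-I).

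The called genes of nuclear condensation were, but for 1, higher in IX-XI. Of 41 measured, 4 were higher in IX-XI (9.76%, against 3.77% of all genes), 1 higher in IV-VI (2.44%, against 3.42%) and 36 did not pass, with a median difference of -0.145 log2. Tnp2, transition protein 2, stood at 11.93 and 11.44 in IV-VI and at 13.38 and 13.27 in IX-XI, a difference of -1.64 ± 0.32 log2 with adjusted p = 0.0219. H2al2a, a spermatid histone H2A variant, stood at 10.10 and 10.55 against 11.56 and 11.23, and H1f7, the linker histone of spermatids, at 11.85 and 11.54 against 12.66 and 12.47. The groups did not overlap in these 3 genes. The protamines, which follow the transition proteins in the nucleus, did not pass. Prm1 stood at 12.22 and 12.93 against 13.25 and 13.10 (adjusted p = 0.0882), and Prm2 at 13.63 and 13.71 against 13.71 and 13.66 (adjusted p = 0.936), both named after their values were seen. The member higher in IV-VI was Nutm1, a partner of the histone acetyltransferase p300, at 10.56 and 10.94 against 8.35 and 9.28. Tnp2 was the member still called without IV-VI sample 1. None was called without each of the other 3 samples. The lower count was 2 without either VIII-IX sample and 6 without either XII-I or II-IV sample.

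The upstream bases of Tnp1 are shown as the promoter of a gene of nuclear condensation. They lie at chr1:73015900-73016149 on the minus strand of GRCm38.p6, from RefSeq. None of the 4 motifs searched was found letter for letter in this window, so no base is in capitals. Near matches were not searched, so the lack of a match does not show the lack of a site.
Tnp1: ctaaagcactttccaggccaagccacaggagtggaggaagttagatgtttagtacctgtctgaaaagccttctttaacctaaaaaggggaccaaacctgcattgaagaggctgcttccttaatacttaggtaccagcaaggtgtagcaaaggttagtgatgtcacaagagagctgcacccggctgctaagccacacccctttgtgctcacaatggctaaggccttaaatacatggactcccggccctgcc

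Of the called axonemal genes, most were higher in IV-VI. Of 85 axonemal genes, which build the motor of the flagellum, 10 were higher in IV-VI (11.8%, against 3.42%), 3 were lower (3.53%, against 3.77%) and 72 did not pass. The list's median difference was 0.0718 log2. Iqca, of the axonemal regulatory complex, stood at 9.78 and 10.42 in IV-VI and at 7.72 and 8.11 in IX-XI, a difference of 2.19 ± 0.37 log2 with adjusted p = 0.0151. Cfap58, needed for sperm tail assembly, stood at 11.16 and 11.24 against 9.07 and 10.15. The other 8, Ccdc146, Armc2, Iqub, Efcab6, Tekt3, Enkur, Cfap45 and Cfap61, differed by 0.50 (Cfap61) to 0.81 log2 (Ccdc146 and Armc2). The members higher in IX-XI were the dynein heavy chains Dnah2, at 10.32 and 10.20 against 11.50 and 11.17, and Dnah14, by 0.94 log2, and Cfap46 of the central pair, by 0.71 log2. The axonemal counts without IV-VI sample 1 were 3 higher and 0 lower, without either VIII-IX sample 6 and 3, and 0 and 0 without each of the other 3 samples of the 2 groups. The lower count was 5 without any one XII-I or II-IV sample.

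Among 50 genes of the outer dense fibres, fibrous sheath and midpiece, Fsip1 and Fsip2, which interact with the fibrous sheath, and the enolase Eno4 were higher in IV-VI, and Odf3b and Tmco5b were higher in IX-XI. These shares of 6.0% higher and 4.0% lower stood beside 3.42% and 3.77% of all genes. Fsip1 stood at 11.34 and 11.46 in IV-VI and at 9.64 and 10.37 in IX-XI, a 2.63-fold difference. Odf3b stood at 8.75 and 8.99 against 11.13 and 10.68, and Tmco5b at 9.44 and 8.09 against 10.81 and 10.74. Of 65 genes of head shaping, the manchette and the nuclear envelope, Cfap45 was higher and Clip2, a microtubule plus-end protein, Tbcel, a tubulin cofactor relative, and Cby1, a basal body protein, were lower in IV-VI (1.54% and 4.62%). These 3 differed by -0.55 to -0.69 log2. Leaving out IV-VI sample 1 left these lists with 0 higher with 1 lower each, and no call held without each of the other 3 samples. Cfap45 was also lost without any one II-IV, VII or VIII-IX sample, and the head and manchette list had 6 lower without either XII-I sample.

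Of 43 channel, pump and signalling genes of sperm, 1 was higher in IV-VI (2.33%, against 3.42% of all genes) and 2 were lower (4.65%, against 3.77%). Prkar1a, a regulatory subunit of protein kinase A, was higher in IV-VI by 0.48 log2. Trpm8, a cation channel, stood at 7.15 and 7.05 in IV-VI and at 8.19 and 8.30 in IX-XI (adjusted p = 0.00938), and Ppp1r42, a regulator of protein phosphatase 1, was lower in IV-VI by 0.49 log2. Of 75 genes of proteolysis and ubiquitin in late spermatids, 3 were higher in IV-VI (4.0%) and 4 lower (5.33%), near the shares of all genes. Those higher were the ubiquitin ligase Marchf7, the proteasome subunit Psma5 and the F-box protein Fbxo36, by 0.36 to 0.40 log2. Those lower were larger in size. Fbxo39, another F-box protein, was 4.06-fold higher in IX-XI (difference -2.02 ± 0.47 log2), and the ubiquitin ligase Rnf133 stood at 10.81 and 10.33 against 11.79 and 11.52. Asb1 and Asb8, substrate receptors of ubiquitin ligases, differed by -0.89 and -0.90. Trpm8, Fbxo39 and Asb8 were still called without IV-VI sample 1, and no member was without each of the other 3 samples. The channel list had 2 higher and 5 lower without either XII-I sample. The proteolysis list had 1 higher and 1 lower without either VIII-IX sample, 2 and 2 without either VII sample, and 4 and 7 without either XII-I sample.

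Regulators of spermatid transcription and of RNA gave 0 to 2 calls in each direction, beside 3.42% of all genes higher and 3.77% lower. Of 47 transcription regulators, 2 were higher in IV-VI (4.26%) and 1 lower (2.13%). Foxj1, a master regulator of motile cilia, stood at 10.09 and 10.42 in IV-VI and at 8.85 and 8.92 in IX-XI (2.59-fold, adjusted p = 0.0136), and Hsf2, a heat shock factor of the testis, at 11.20 and 11.34 against 9.55 and 10.15. Ovol1, a zinc finger repressor, was lower by 0.73 log2. Of 30 genes of the PIWI pathway and germ granule, Gtsf2 (1.39 log2) and Tdrd7 (0.77 log2), a tudor domain protein of the chromatoid body, were higher (6.67%) and 0 were lower. Of 53 genes of mRNA storage and poly(A) control, the RNA-binding proteins Dazl and Adad1 were higher (3.77%), by 0.55 and 0.38 log2, and 0 were lower. Foxj1, Tdrd7 and Dazl were still called without IV-VI sample 1, and no member of these 3 lists was without each of the other 3 samples. Ovol1 was lost without any one VII or VIII-IX sample, 3 regulators were lower without either XII-I sample, and the mRNA storage list had 1 higher without either VII or VIII-IX sample and 4 without either II-IV sample.

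Retinoid genes were called in both directions. Measured were 37 genes that take up, convert or respond to retinoids. Of these, 2 were higher in IV-VI (5.41%, against 3.42% of all genes), 3 were higher in IX-XI (8.11%, against 3.77%) and 32 did not pass. Rdh10, which oxidizes retinol to retinal, stood at 9.52 and 9.05 in IV-VI and at 11.45 and 11.31 in IX-XI. All 4 samples were well separated by group, and the difference was -2.09 ± 0.31 log2, or 4.27-fold, with adjusted p = 0.0116. Stra6, which takes up retinol from its carrier, stood at 8.49 and 8.27 against 9.63 and 9.82, a difference of -1.35 ± 0.21 log2 with adjusted p = 0.0126. Stra8, induced by retinoic acid when germ cells commit to meiosis, stood at 7.29 and 6.90 against 8.47 and 8.34, a difference of -1.31 ± 0.19 log2 with adjusted p = 0.0111. The members higher in IV-VI were Adh7, an alcohol dehydrogenase with retinol among its substrates, at 9.70 and 10.02 against 7.89 and 8.35, and Crabp1, which binds retinoic acid in the cell, at 10.49 and 10.69 against 9.93 and 9.84. These 5 genes were still called without IV-VI sample 1, and none of them without each of the other 3 samples. Without either XII-I sample 5 members were lower. The differences of Rdh10, Stra6, Stra8, Adh7 and Crabp1 kept their sign throughout, with Stra8 between -1.11 and -1.51. Since their groups did not overlap, the leave-outs could not change the sign.

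The promoters of Stra6 and of Prdm9, a meiotic gene described next, are shown. Both were picked because the genes were higher in IX-XI, where Stra8 was high, and the windows hold CNCCTCAG, letters reported for the binding of STRA8. The same letters were found past the start of Prss46, which was higher in IV-VI, and before that of Pou5f1, higher in IX-XI. A link of these genes to STRA8 was not tested. The Stra6 window lies before the first of its RefSeq starts, at chr9:58128838-58129087 on the plus strand, and capitals mark that motif and GTTGCC, both on the opposite strand. The Prdm9 window lies before another start of its gene, at chr17:15564355-15564604 on the minus strand, with that motif in capitals.
Stra6: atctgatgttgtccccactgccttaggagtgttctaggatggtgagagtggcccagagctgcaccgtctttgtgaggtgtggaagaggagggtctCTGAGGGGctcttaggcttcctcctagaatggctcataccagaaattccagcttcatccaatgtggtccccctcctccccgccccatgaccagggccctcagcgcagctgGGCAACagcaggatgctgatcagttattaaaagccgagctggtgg
Prdm9: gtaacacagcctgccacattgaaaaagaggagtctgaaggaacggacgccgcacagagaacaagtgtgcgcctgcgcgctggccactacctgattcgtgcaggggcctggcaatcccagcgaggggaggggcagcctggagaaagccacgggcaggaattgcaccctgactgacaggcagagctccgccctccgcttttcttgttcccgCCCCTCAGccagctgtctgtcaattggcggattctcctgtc

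Such matches are common. In windows from 250 bases before to 50 after the start, both strands searched, CNCCTCAG was found in 9.78% of 184 windows of genes at least 2-fold higher in IV-VI, in 7.33% of 232 windows of genes at least 2-fold lower and in 8.67% of 19184 windows of all tested genes. The RFX letters GTTGCC was found in 14.1%, 10.8% and 12.3%. The cAMP response element TGACGTCA was found in 1.63%, 0.862% and 2.37%. The retinoic acid response element made of a direct repeat with a spacer of 5 bases was found in 1 window of all genes and in none of the called ones. The windows belonged to 152, 183 and 15619 genes. A match is a description of letters, not of a bound site.

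Germ cells before and in early meiosis showed small sets of calls. Of 29 genes of undifferentiated spermatogonia, Pou5f1 and Lhx1, both transcription factors, were higher in IX-XI (6.90%, against 3.77% of all genes) and 0 were higher in IV-VI. Pou5f1 stood at 6.72 and 6.66 in IV-VI and at 8.51 and 8.24 in IX-XI (3.20-fold, adjusted p = 0.00938), though its probe set may also read related copies. Of 16 genes of differentiating spermatogonia, 5 were higher in IV-VI (31.3%, against 3.42%) and 1, Stra8, was lower (6.25%, against 3.77%). The list's median difference was only 0.0553 log2, and 9 of the 16 differences were above 0, beside 7916 of all 19946 genes. The 10 members that did not pass included Kit at 0.21 and Uchl1 at -0.52 log2. The 5 higher in IV-VI included Sohlh2, a transcription factor of spermatogonial differentiation, at 9.35 and 9.77 against 8.50 and 8.77. The others were Crabp1 (0.71 log2), the transcription factor Dmrt1 (0.57 log2), Dazl (0.55 log2) and the cyclin Ccnd1 (0.49 log2). With IV-VI sample 1 left out, the undifferentiated list had 1 call, Pou5f1, and the differentiating list 3 higher and 1 lower. The latter counts were the same without any one VII or VIII-IX sample, and neither list had a call without each of the other 3 samples of the 2 groups.

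Of 38 genes of meiotic entry and homologue pairing, 4 were higher in IX-XI (10.5%, against 3.77% of all genes) and 2 in IV-VI (5.26%, against 3.42%). Beside Stra8, Rad21l, a meiotic cohesin, stood at 6.66 and 6.58 in IV-VI and at 8.07 and 7.66 in IX-XI, and Prdm9, which marks sites of recombination, at 7.50 and 7.24 against 8.41 and 8.19. The groups did not overlap in either. Mei1, needed for early recombination, differed by -0.50. Tex15, needed for meiotic repair and transposon silencing, was higher in IV-VI at 10.81 and 10.94 against 9.61 and 9.84, and Hormad2, of the chromosome axis, at 9.36 and 9.58 against 8.42 and 8.80. Of 30 genes of pachytene and diplotene spermatocytes, Rnf212b, related to a factor of crossing over, was higher (1.08 log2; 3.33%) and 0 were lower. Stra8 was the only call left in these lists without IV-VI sample 1, and there was none without each of the other 3 samples. The 2 members higher in IV-VI in the meiotic entry list were both lost without either VIII-IX sample, and the count was 4 without either II-IV sample, 1 without either VII sample and 3 without either XII-I sample, where 6 were lower. The pachytene list had 2 higher and 1 lower without either XII-I sample.

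The called genes of cell division were, but for 1, higher in IV-VI. Of 55 genes of the meiotic divisions and M phase, 7 were higher (12.7%, against 3.42%), 1 was lower (1.82%, against 3.77%) and 47 did not pass. Plk1, a kinase of M phase entry, stood at 11.55 and 11.95 in IV-VI and at 10.72 and 10.21 in IX-XI. The groups did not overlap, and the difference was 1.29 ± 0.26 log2, or 2.44-fold, with adjusted p = 0.0244. Cenpe, a kinetochore motor, stood at 9.87 and 10.26 against 9.12 and 9.07, and Ube2c, the ubiquitin carrier of the anaphase-promoting complex, at 10.30 and 10.32 against 9.42 and 9.57 (adjusted p = 0.00969). Cdc25c and Cdc25a, phosphatases that activate cyclin-dependent kinases, were higher by 0.81 and 0.61 log2, Sgo1, which guards centromeric cohesion, by 0.53, and the cyclin Ccnb2 by 0.41. The member higher in IX-XI was Kif2c, a microtubule depolymerase, by 0.57 log2. Of 45 DNA replication genes, the helicase subunit Mcm3 (0.80 log2) and the polymerase subunit Pole2 (0.61 log2) were higher in IV-VI (4.44%) and 0 were lower. Without IV-VI sample 1, Ube2c was the only call left in these lists, and there was none without each of the other 3 samples. Kif2c was lost without any one VII or VIII-IX sample. The replication list had 5 higher without either II-IV sample and 1 without either VII or VIII-IX sample. Without either XII-I sample it had 4 higher and 2 lower.

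Sertoli cells nurse the germ cells, and their genes tied to androgen or to stage formed a list of their own. Ties to stage helped to define this list, so calls between stages are partly built in. Whole tissue does not show in which cells a transcript differed. Of 54 such genes, 8 were higher in IX-XI (14.8%, against 3.77%), 1 in IV-VI (1.85%, against 3.42%) and 45 did not pass. Esyt3, an extended synaptotagmin, stood at 8.27 and 7.97 in IV-VI and at 10.68 and 10.44 in IX-XI, a difference of -2.44 ± 0.40 log2 with adjusted p = 0.0136. Cldn13, a claudin, stood at 7.23 and 7.17 against 8.89 and 8.75, a difference of -1.62 ± 0.26. The groups were far apart for both, relative to the spread within them. Of the Notch pathway, the ligand Jag1 stood at 9.09 and 9.58 against 10.36 and 10.21, the receptor Notch1 at 8.63 and 8.25 against 9.17 and 9.28, and the target Hes1 at 8.07 and 7.98 against 8.40 and 8.45. Rdh10 and Stra6 belong to this list too, and Wnt3, a secreted ligand, differed by -0.62. The member higher in IV-VI was Espn, an actin bundling protein of Sertoli cell junctions, at 10.18 and 10.44 against 9.77 and 9.44. Without IV-VI sample 1 the counts were 1 higher and 6 lower, and 0 without each of the other 3 samples. With a II-IV sample left out 3 were higher.

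Of 31 general Sertoli genes, Gstm6, a glutathione transferase, and Dmrt1 were higher in IV-VI (6.45%, against 3.42% of all genes), by 0.81 and 0.57 log2, and 0 were lower. The summed level of these 31 genes was 15.40 and 15.37 in IV-VI and 15.30 and 15.24 in IX-XI (log2 of the summed intensities). The defining markers Sox9 and Wt1 differed by 0.10 and 0.03 log2, and neither passed. Of 68 genes of the blood-testis barrier and germ cell adhesion, 4 were higher in each group (5.88% each). Higher in IV-VI were Pls3, an actin bundling plastin, at 8.74 and 9.10 against 8.16 and 7.73, Amph, Espn and Amot. Higher in IX-XI were Cldn13, Nectin4, at 8.27 and 8.22 against 9.42 and 9.10 (adjusted p = 0.00930), Cdh2, the cadherin between Sertoli and germ cells, at 10.78 and 10.85 against 11.89 and 11.66, and Actn4, an actin crosslinker, by 0.49 log2. Without IV-VI sample 1 the adhesion list had 2 higher and 2 lower and the general Sertoli list none. Nectin4 was the only call without IX-XI sample 2, and there was none without IV-VI sample 2 or without IX-XI sample 1. The adhesion list had 2 higher without either VIII-IX sample, where the general Sertoli list had 1.

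**Figure D3:**
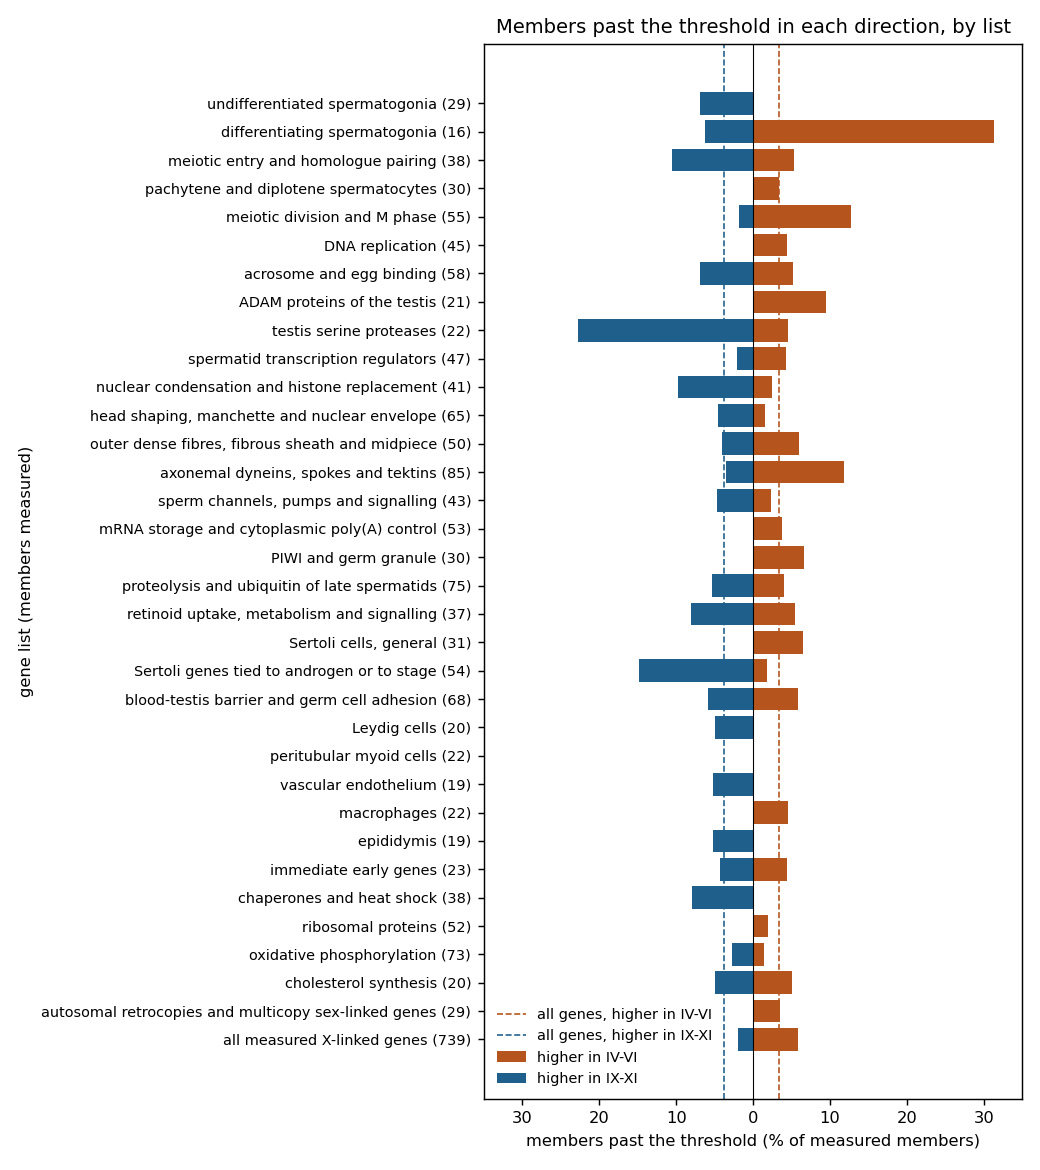
Share of measured members past the threshold (horizontal axis, percent) in each gene list with at least 10 measured members, whose number is in brackets. Bars to the right are members higher in IV-VI, bars to the left members higher in IX-XI, and dashed lines are the shares of all genes, 3.42% and 3.77%. The longest bars are 31.3% of differentiating spermatogonia genes to the right and 22.7% of testis serine proteases to the left.

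The share of X-linked genes higher in IV-VI lay above that of every autosome, and the share lower lay within the range of the autosomes. Of 739 measured X-linked genes, 43 were higher in IV-VI (5.82%) and 15 were lower (2.03%), with a median difference of -0.0185 log2. On the autosomes the share higher ran from 2.24% on chromosome 11 to 5.19% on chromosome 13, and the share lower from 1.92% on chromosome 10 to 5.35% on chromosome 15. Beside Ppp4r3c-ps, Cfap47, a protein of the sperm tail, stood at 9.20 and 9.54 in IV-VI and at 7.08 and 7.55 in IX-XI, and Gm5755, a predicted gene, at 9.21 and 9.86 against 7.03 and 7.50. Ppp1r2-ps7, annotated as a pseudogene, was higher in IX-XI at 11.14 and 10.83 against 9.44 and 8.31. Of only 9 Y-linked genes, 3 were higher in IV-VI (33.3%, against 3.42% of all genes) and 0 lower (against 3.77%). Srsy, of a multicopy family, stood at 11.53 and 11.68 against 10.08 and 10.60, Eif2s3y, a translation initiation factor, at 10.42 and 10.33 against 9.26 and 9.64, and the ubiquitin-activating Uba1y at 10.47 and 10.35 against 9.67 and 9.80. Eif2s3y was also the only call among 29 autosomal retrocopies and multicopy sex-linked genes. Without IV-VI sample 1 the X-linked counts were 14 and 5 and the Y-linked count was 0. Without each of the other 3 samples of the 2 groups no gene on X or Y was called. Without either XII-I sample the X-linked counts were 57 and 25, and without either VIII-IX sample 31 and 10.

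Genes of energy metabolism, protein folding, sterol synthesis, ribosomes and early stimulus response gave between 1 and 3 calls a list, beside 3.42% of all genes higher and 3.77% lower. Of 73 genes of oxidative phosphorylation, 1 was higher (1.37%) and 2 were lower (2.74%). Atp5g2, an ATP synthase subunit, was higher in IV-VI by 0.67 log2. Tfam, which packs and transcribes mitochondrial DNA, stood at 8.15 and 7.93 in IV-VI and at 10.54 and 10.17 in IX-XI, a 4.97-fold difference with adjusted p = 0.0145. The complex I subunit Ndufa13 was lower in IV-VI by 0.68 log2. Of 38 chaperones, Hspa1l, the testis HSP70 of spermatids, Hspa1a, the heat-inducible HSP70, and Serpinh1, the collagen chaperone, were higher in IX-XI (7.90%) by 0.54 to 0.57 log2, and 0 were higher in IV-VI (2 without either VII sample). Of 20 genes of cholesterol synthesis, Sqle was higher in IV-VI (0.55 log2) and Fdps higher in IX-XI (0.82 log2), 5.0% each way. Of 52 ribosomal protein genes, Rps4l was called (0.47 log2; 1.92%), and of 23 immediate early genes, which respond within minutes to a stimulus, Klf2 was higher (0.72 log2) and Fosb lower (0.85 log2) in IV-VI, 4.35% each way. Hspa1a and Fdps were still called without IV-VI sample 1, and no member of these 5 lists was without each of the other 3 samples. Rps4l was lost without any one II-IV or VII sample, and Klf2 without any one VII sample. Without either XII-I sample the oxidative phosphorylation, cholesterol and immediate early lists each had 2 higher and 2 lower.

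Markers of other testis cells were read beside these results. Of 20 Leydig cell genes, 17 had a difference above 0, beside 7916 of all 19946 genes, and the median was 0.315 log2. Yet only Scarb1, the lipoprotein receptor, was called, higher in IX-XI by 0.75 log2 (5.0%, against 3.77% of all genes). The summed level of the Leydig genes was 14.76 and 14.68 in IV-VI and 14.70 and 14.25 in IX-XI. The value of 14.25, in IX-XI sample 2, was the lowest of the 12 samples, which reached 15.36. Cyp11a1, which starts steroid synthesis, stood at 11.47 and 11.14 against 10.94 and 10.18 and did not pass. Among 22 peritubular myoid genes limma called 0, and 3 were under 0.05 before adjustment, beside 4859 of all 19946 genes. Egfl7 was higher in IX-XI by 0.52 log2 among 19 endothelial genes (5.26%, against 3.77% of all genes). Adgre1 was higher in IV-VI by 0.76 log2 among 22 macrophage genes (4.55%, against 3.42%). Only 3 of the 22 had a difference above 0, the median was -0.170 log2, and the other members did not pass, C1qb among them at -0.42. Scarb1 was the only one of these still called without IV-VI sample 1, and none was without each of the other 3 samples. Adgre1 was lost without either VIII-IX sample, and 1 Leydig gene was higher without any one XII-I or VII sample.

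The range of the summed levels over the 4 samples was 14.12 to 14.22 for myoid cells, 12.40 to 12.61 for endothelium and 13.24 to 13.49 for macrophages. The defining markers of the epididymis were low, with Lcn5, Lcn8, Crisp4 and Defb48 between 5.29 and 6.88 in the 4 samples. Lcn2, on the same list, was high, at 12.47 and 12.51 in IV-VI and 12.52 and 11.99 in IX-XI. The list's summed level was 12.91 and 12.94 in IV-VI and 13.0 and 12.66 in IX-XI. Of 19 epididymal genes, Defb21 was higher in IX-XI by 0.48 log2 (5.26%, against 3.77% of all genes). Of 5 measured blood genes, Alas2, the heme synthesis enzyme of red cells, stood at 8.69 and 9.75 in IV-VI and at 7.61 and 7.75 in IX-XI. The other 4, Epb42, Rhag, Slc4a1 and Car1, differed by -0.03 to -0.29 log2, the list's median was -0.0799, and none of the 4 passed. Alas2 was called with adjusted p = 0.0395, also without IV-VI sample 1 and not without each of the other 3, nor without any one VII or VIII-IX sample. The part of any of these cells in the differences above was not tested. Germ cell markers were high in all 4 samples, with Ddx4 between 12.25 and 12.73.

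Across the 6 stage groups, the called genes mostly peaked and dipped near the 2 groups compared, which follows in part from the call. A gene called higher in IV-VI cannot have its lowest mean there or its highest mean in IX-XI, and the reverse holds for lower genes. The shares below describe the called genes only. Of the 682 genes higher in IV-VI, 334 (49.0%) had their highest mean in IV-VI, 255 (37.4%) in II-IV, 79 (11.6%) in XII-I and 14 in VII. Their lowest mean was in VIII-IX for 412 (60.4%) and in IX-XI for 262 (38.4%). Of the 751 genes lower in IV-VI, 411 (54.7%) had their highest mean in VIII-IX and 324 (43.1%) in IX-XI, and 446 (59.4%) had their lowest in IV-VI. The largest share of lows in the first set and of highs in the second thus lay in VIII-IX, the group before IX-XI.

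Single genes followed different courses. Spam1 rose from a mean of 9.33 in XII-I to 10.80 in II-IV and 11.24 in IV-VI, was 10.94 in VII, and was lowest in VIII-IX at 7.08, below IX-XI at 8.41. Prss46 was highest in II-IV at 12.06 and Plk1 in XII-I. Tnp1 was lowest in IV-VI at 10.20 and stood at 13.01 in VIII-IX and 12.76 in both IX-XI and XII-I. Rdh10 and Stra8 were high in both VIII-IX and IX-XI. Between IV-VI and its neighbours the test called 0 genes against II-IV (1323 at an unadjusted p under 0.05 in limma) and 0 against VII (1183). IX-XI against VIII-IX also gave 0 (925).

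**Figure D4:**
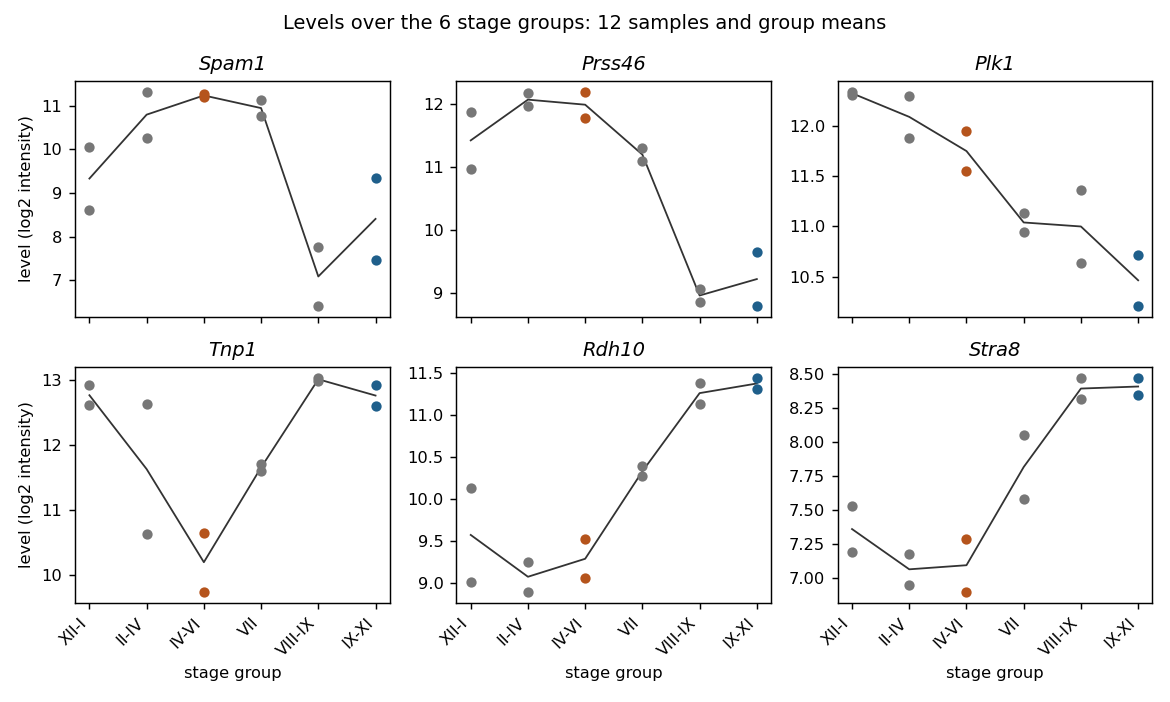
Level (log2 intensity, vertical axes, each with its own range that does not start at 0) of 6 genes in the 6 stage groups in cycle order. Points are the 12 samples, orange for IV-VI and blue for IX-XI, and lines join group means. Spam1 and Prss46 are low in VIII-IX and IX-XI, Tnp1 is lowest in IV-VI, and Rdh10 and Stra8 are high in VIII-IX and IX-XI.

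The comparison was set beside the other pairs of groups that lie opposite each other in the cycle. II-IV against VIII-IX called 2619 genes (13.1%), and 561 of the 682 genes higher in IV-VI (82.3%, or 40.6% of the 1381 higher in II-IV, which were 6.92% of all genes) were called the same way there. Of the 751 lower genes, 574 (76.4%, or 46.4% of the 1238 lower in II-IV, which were 6.21%) were. None was called the opposite way. The difference between the 2 comparisons was called for 0 genes (0.0%), with 426 at an unadjusted p under 0.05 in limma. The comparisons differed by 0.82 log2 for Faiml and by -1.18 log2 for Tnp1, neither past the threshold. Without VIII-IX sample 2 the count was 6.

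VII against XII-I called 3207 genes (16.1%), 1025 higher in VII (5.14%) and 2182 lower (10.9%). Of the 682 genes, 30 (4.4%) were called the same way and 102 the opposite way. Of the 751, the counts were 78 (10.4%) and 57. The shares called the same way lay close to those of all genes. The difference between these comparisons was called for 1864 genes (9.35%), among them 324 of the 682 (47.5%) and 340 of the 751 (45.3%). That difference contains the IV-VI and IX-XI values that picked these genes, so shares above 9.35% are partly built in. The same holds for the single genes named next. Prss46 differed from VII against XII-I by 2.98 log2 (adjusted p = 0.0103), Tpte by 3.12 (0.0131), Faiml by -4.31 (0.0220) and Fam71b by -4.11 (0.0371). For Tssk5 (0.97, adjusted p = 0.571), Spam1 (1.21, 0.527) and Tnp1 (-1.45, 0.277) the difference between the comparisons was not called. The count of 1864 was 138 without IV-VI sample 2, 261 without IX-XI sample 2, 544 without VII sample 2, 627 without IX-XI sample 1 and 846 without XII-I sample 2.

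**Figure D5:**
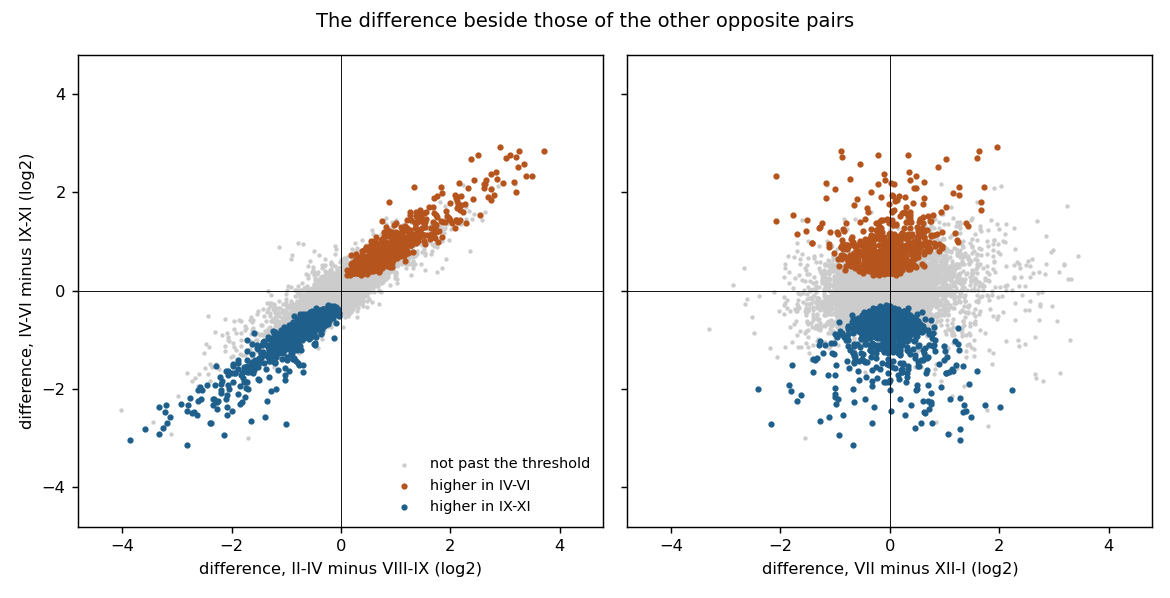
Difference between IV-VI and IX-XI (log2, vertical axis) against that between II-IV and VIII-IX (left) and between VII and XII-I (right). Each point is a gene, with the 682 genes higher in IV-VI in orange and the 751 higher in IX-XI in blue. On the left all coloured points keep the sign of their difference, and on the right they spread to both sides of 0, with 311 of the 682 on the same side.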

How the data were processed

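RNA of 12 synchronized testis samples was read on Affymetrix Mouse Gene 1.0 ST arrays. Amplification started from 100 ng of RNA, and 3.75 ug of cDNA was labelled with biotin, per the labels. The authors deposited 1 linear intensity per probe set and array, made with RMA per the submitters' processing notes. The RMA version and annotation build are not given in the sources used here. RMA makes the arrays' distributions alike, so differences are relative to the other transcripts. Array medians were 296.9 to 309.1, and precision is limited by how few arrays there are. Of 28853 probe sets, 21797 had 1 gene symbol, 1613 several and 5443 none listed. The brightest single-symbol set was kept for each of 19946 genes. A model of 6 group means was fitted to log2 intensity of all 12 arrays with limma 3.58.1 in R 4.3.3. Each gene's variance rested on 6 residual degrees of freedom of all arrays and 3.189 of a prior shared by all genes. Adjustment was by Benjamini-Hochberg over all genes, with a threshold of 0.05.

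Genes named are the 12 largest differences in each direction among called genes whose groups did not overlap, passing over predicted genes, receptor families and small RNAs, and up to 4 called members of each of 35 lists of 1469 entries (126 not measured, 19 matched by a synonym), plus X- and Y-linked genes. Other members named beside a count were chosen after their values were seen. The comparison, members and lists were chosen with earlier results of these data known. Promoters are from RefSeq, GRCm38.p6. Alternatives were other normalizations, filters, probe set rules, variance settings, a replicate block and leave-outs.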

Additional observations from a re-analysis of the deposited data

How the results depend on the processing

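No difference of the 104 named genes changed sign under any alternative. This was in part built in. Leaving out a sample cannot reverse groups that do not overlap, and variance settings and leave-outs of other groups do not alter the differences. With the 4 arrays alone, 1527 genes were higher in IV-VI and 1656 lower, and with array quality weights 2259 and 2549. Repeated quantile normalization, median centring, leaving out the dimmest 30% of genes, the mean of a gene's probe sets, and the trended robust prior gave 1427 to 1674 calls in all and shared 91.8% to 98.5% of the 1433. Over the 12 leave-outs, the count higher ran from 0 (without IX-XI sample 1) to 903 and the count lower from 2 to 1103, and at least 2-fold from 0 to 232 higher and from 2 to 276 lower. The difference from VII against XII-I ran from 138 to 2185 genes, and that from II-IV against VIII-IX from 0 to 6. The cause of these moves was not tested. For a group outside the comparison, leaving out sample 1 or sample 2 gave the same calls between IV-VI and IX-XI. The sample that remains adds no spread, so the 2 fits are not separate checks. With the sample number as a replicate block, 1632 genes were called, 679 higher and 953 lower. The deviations of same-numbered samples correlated at -0.159 between IV-VI and IX-XI and from -0.354 (II-IV and IX-XI) to 0.541 (II-IV and VIII-IX) over all pairs of groups. Since not every pair exceeded 0.1, the numbers were not taken to pair the samples. With crossed numbers, an alternative chosen after seeing the data, 1765 genes were called, 828 higher and 937 lower. The values used here carry no detection call, so how far a dim gene lies above background is not known.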

Other observations

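Genes with the smallest adjusted p differed from those with the largest differences, and the ones below were chosen after their values were seen. Acer2, an alkaline ceramidase, stood at 7.78 and 7.72 log2 intensity in IV-VI and at 9.41 and 9.42 in IX-XI. Smok2b, a sperm motility kinase, stood at 7.27 and 7.23 against 9.63 and 9.35. Both pairs of samples agreed closely, and both genes had adjusted p = 0.00124 in limma, the smallest of all genes. Cd55, which protects cells from complement, stood at 8.47 and 8.26 against 9.99 and 9.92. Its difference was -1.59 ± 0.13 log2 (SE of limma, n = 2 against 2), with adjusted p = 0.00270 in limma. Cd55 was called without IV-VI sample 2 (adjusted p = 0.0478) and without IX-XI sample 2 (adjusted p = 0.0339), but not without IX-XI sample 1. Hpse, the heparanase that cuts heparan sulfate chains, stood at 7.38 and 7.44 against 9.46 and 9.09, and it was called without IX-XI sample 2 (adjusted p = 0.0452). Over the cycle, Acer2, Smok2b and Hpse had their highest mean in VIII-IX, at 9.48, 9.51 and 9.58, and Cd55 in IX-XI at 9.95.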
